A study of Drosophila melanogaster with 12 samples.

Results

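The tubulin genes of the early Drosophila embryo described here are alphaTub84B, alphaTub84D and alphaTub67C, betaTub56D and betaTub60D, and gammaTub37C and gammaTub23C. They were chosen by symbol, and all 7 were found among the 15682 genes of the antibody experiment and among the 17559 genes of the GFP-binder experiment. The study asked which RNAs come down with Slam, a protein of the furrow canal at the tip of the cellularization furrow, and sequenced the RNA of immunoprecipitates from embryos of 1.5 to 3 h. In the antibody experiment, lysate of wild-type embryos was precipitated with guinea pig Slam antibody (3 libraries, Slam 1 to 3) or, as control, with guinea pig antibody against the formin Dia (4 libraries, Dia 1 to 4). In the GFP-binder experiment, a single-chain GFP antibody, the GFP-binder, was given lysate of GFP-slam embryos (2 libraries, GFP-slam 1 and 3) or of wild-type embryos labelled OrR (3 libraries, wild type 1 to 3). GFP-slam is a genomic slam transgene with GFP at the N-terminus, inserted on the third chromosome; the state of the endogenous slam gene in these embryos is not given for this precipitation. Both controls were wild-type lysates, and the Dia control holds RNA that comes down with a second antibody.

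Microtubules are polymers of alpha- and beta-tubulin heterodimers, and gamma-tubulin, as part of a ring complex, starts their growth at centrosomes and spindle poles. The egg is loaded with tubulin mRNA and protein by the mother, and the embryo uses them in its rapid syncytial divisions and then in the basket of microtubules that surrounds each nucleus while cellularization furrows grow in. Some tubulin genes are used in most cells, some mainly in the female germ line and early embryo, and some mainly in differentiating tissues.

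Library totals ranged from 4383704 counts (Dia 3) to 31647090 with the antibodies and were between 20170936 and 47249817 with the GFP-binder. The slam mRNA itself was at 32099 to 119176 CPM (counts scaled to a common library size by TMM) with Slam antibody and at 347 to 1443 CPM with Dia antibody, and its fitted log2 ratio was 6.29 (edgeR adjusted p = 0.00421) in the antibody experiment and 4.03 (edgeR adjusted p = 8.07e-05) in the GFP-binder experiment. The dia mRNA was lower with Slam antibody than with Dia antibody (log2 ratio -3.45, edgeR adjusted p = 0.00664). Of the 6 other markers of the blastoderm embryo, nullo, bnk, ftz and sna were present in both experiments, eve was at 1.81 to 6.497 CPM, and Sry-alpha was at 154 to 519 CPM in the antibody experiment but had 2 counts in all in the GFP-binder experiment, so the tables may not have been counted alike. Among these 6 markers nullo alone was called, higher with Slam than with Dia antibody (log2 ratio 2.00, edgeR adjusted p = 0.000148). For GFP-slam over wild type its log2 ratio was 0.56 (edgeR adjusted p = 0.749). Follicle cell markers summed to at most 0.237 CPM. The sum of the muscle genes Mhc, Act57B and Mlc2 ran from 134 to 2007 CPM with the antibodies and from 39.4 to 408 CPM with the GFP-binder. The remaining markers of differentiated cells were elav and nSyb, and nSyb was at most 3.13 CPM. For Slam over Dia antibody the log2 ratio was 0.44 for elav and -1.41 for Mhc. For GFP-slam over wild type it was -0.46 for elav, 0.52 for Mhc and 0.44 for nSyb. None of these was called. The experiments were normalized apart, so levels are tested only within each. Labels do not say whether libraries of a group came from separate embryo collections, while the methods call them biological replicates; the p-values measure the spread between these libraries.

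Of the 7 tubulin genes, betaTub56D alone passed the test between Slam and Dia antibody, and it was lower with Slam antibody; 0 were called higher. Among all 7466 genes tested in this comparison, 3.62 percent were called lower and 6.84 percent higher at an edgeR adjusted p under 0.05, 10.5 percent in all. All 7 tubulin genes had a fitted log2 ratio below 0, as had 52.3 percent of all genes, and their median was -0.33 against -0.031 over all genes tested. The paper's list of highly abundant transcripts includes betaTub56D, also below 0 for Slam over Dia antibody. Most others in that list, among them Act5C, elongation factor and ribosomal protein transcripts, were below 0 as well. A ratio below 0 is therefore not particular to tubulin genes. That list also holds an alpha-tubulin gene below 0, and the lowest value in it was that of betaTub56D. With the replicate number as a block, 1418 genes were called in place of 781, betaTub56D was again the 1 tubulin gene called, and 6 of the 7 were below 0. Without Dia 1, Slam 1, Slam 2 or Slam 3, the number of genes called fell to 490, 448, 309 and 386. Lysates came from whole embryos and their total RNA is not analysed here. Less binding with Slam antibody, more binding with Dia antibody and lower abundance in the lysate (in fewer cells or with less RNA per cell) cannot be told apart.

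**Figure D1:**
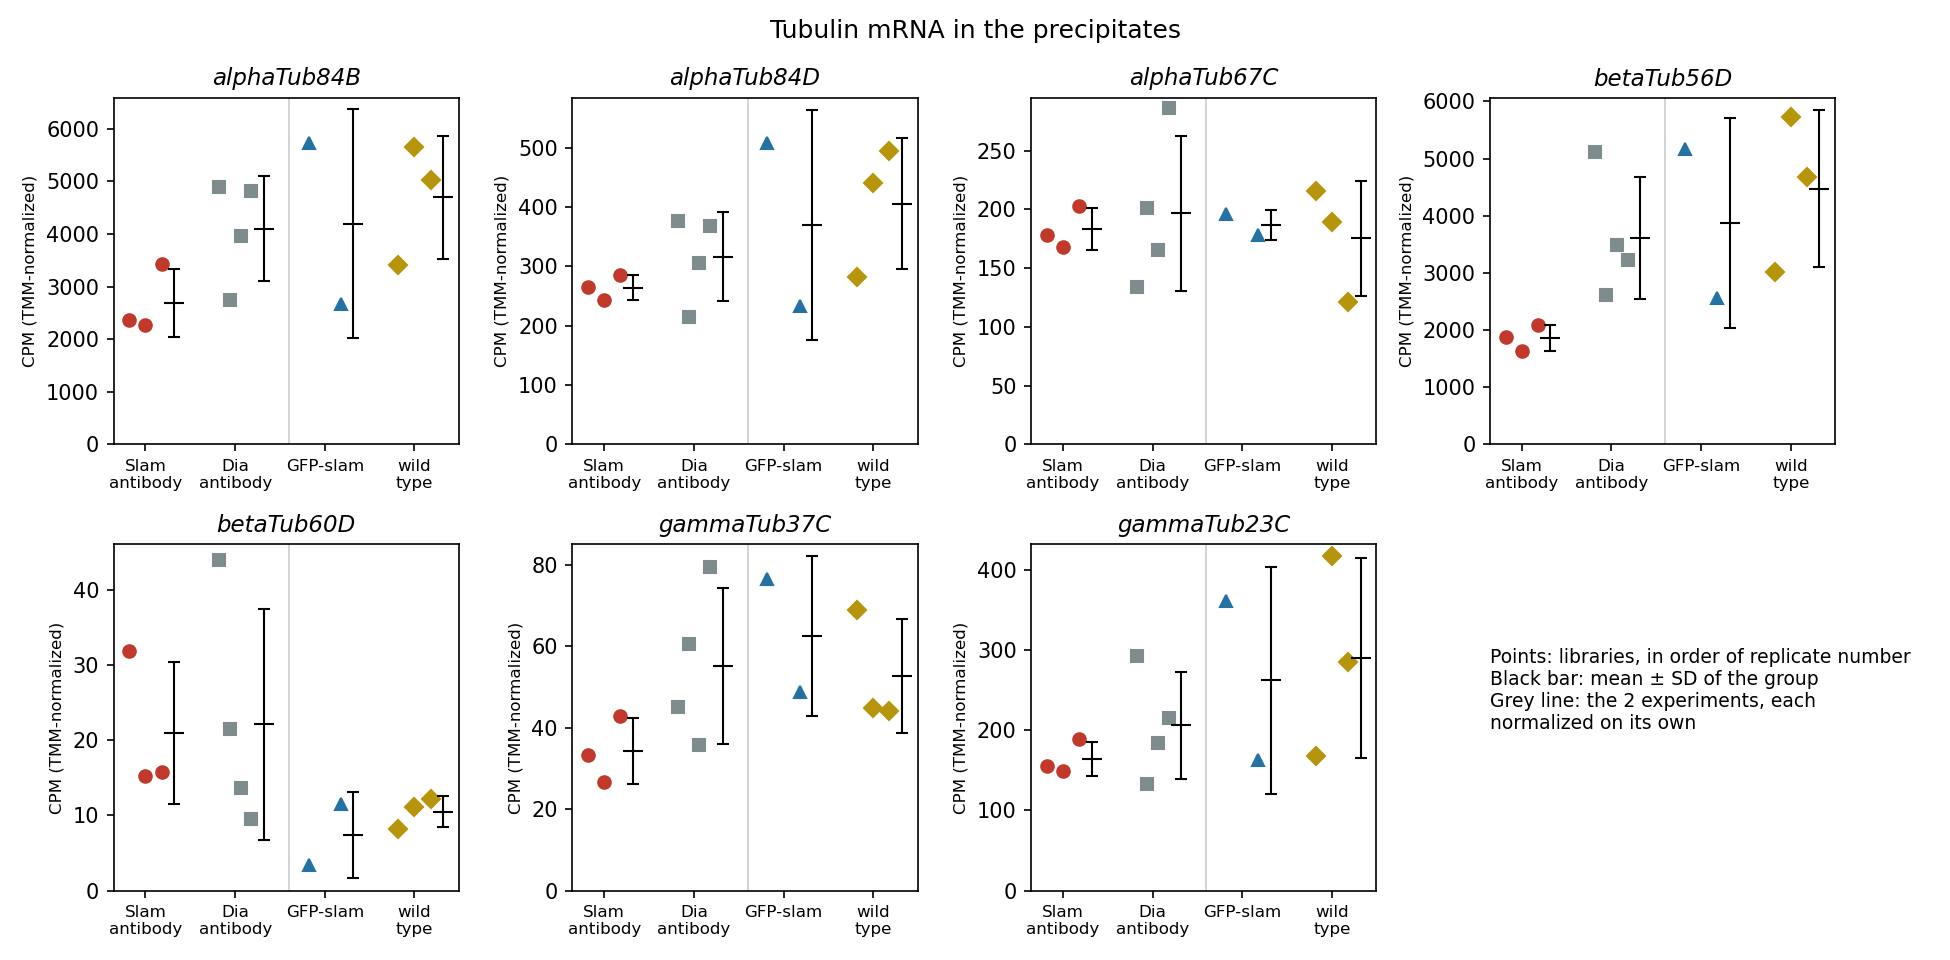
TMM-normalized CPM (y axis, starting at 0) of each tubulin gene in every library of the 4 groups (x axis), with the mean and SD of each group as a black bar. The 3 libraries with Slam antibody lie below all 4 with Dia antibody for betaTub56D; for the other genes the groups overlap.

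The alpha-tubulin genes come first. alphaTub84B (FBgn0003884, chromosome arm 3R) encodes the alpha-tubulin used in most cells of the fly. Its normalised level was 2368, 2273 and 3438 CPM in Slam 1, 2 and 3. In Dia 1 to 4 it was 4889.5, 2736, 3957 and 4825 CPM. Slam 1 and Slam 2 were below every Dia library, but Slam 3 was above Dia 2, so the groups overlapped. The group means were 2693 ± 647 CPM (SD, n = 3) and 4102 ± 1005 CPM (SD, n = 4), and the fitted log2 ratio was -0.61 (SE 0.251, 95% interval -1.16 to -0.059, unadjusted p = 0.0327, edgeR adjusted p = 0.134). The interval lay below 0 for this single gene, and the call did not survive adjustment over all genes. In the GFP-binder experiment alphaTub84B was at 5734 and 2663 CPM in GFP-slam 1 and 3. In wild type 1 to 3 it was at 3402, 5656 and 5036 CPM. The pair of GFP-slam libraries lay at the upper and lower end of all 5, with a fitted log2 ratio of -0.16 (95% interval -0.98 to 0.65, edgeR adjusted p = 0.9999).

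alphaTub84D (FBgn0003885, also on 3R) encodes a protein nearly identical to that of alphaTub84B and is likewise broadly expressed. How reads that match both genes were assigned is not given in the sources used here, so the division of counts between the pair is uncertain. Its level was 266, 242 and 285 CPM in Slam 1 to 3. Dia 1 to 4 had 377, 215, 306 and 368 CPM. The Slam libraries fell inside the range of the Dia libraries, and the fitted log2 ratio was -0.26 (SE 0.231, 95% interval -0.76 to 0.24, edgeR adjusted p = 0.484). With the counts of alphaTub84B and alphaTub84D summed before the fit, the log2 ratio of Slam over Dia antibody was -0.58 (edgeR adjusted p = 0.146), which leaves the call as for alphaTub84B alone. With the GFP-binder, alphaTub84D was at 507 and 233 CPM in GFP-slam 1 and 3 and at 282, 441 and 494 CPM in wild type 1 to 3. As for its neighbour in sequence, GFP-slam 1 was the highest and GFP-slam 3 the lowest of the 5 libraries (log2 ratio -0.13, 95% interval -0.999 to 0.73, edgeR adjusted p = 0.9999).

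alphaTub67C (FBgn0087040, arm 3L) is the divergent alpha-tubulin of the female germ line, supplied to the egg and used in meiotic and early embryonic spindles. Slam 1 to 3 held 178, 168 and 203 CPM of it. Dia 1 to 4 held 134, 201, 165 and 286 CPM. Slam libraries lay close together (coefficient of variation 9.81 percent), inside a wider range of the Dia libraries (33.5 percent), and Dia 4 was the highest. The log2 ratio was -0.10 (SE 0.255, 95% interval -0.66 to 0.45, edgeR adjusted p = 0.821); it was 0.15 with the replicate block and 0.14 without Dia 4, so that it has no settled sign. With the GFP-binder it was at 196 and 178 CPM in GFP-slam and at 216, 189 and 121 CPM in wild type. Here too the tagged libraries lay within the range of the controls, with a log2 ratio of 0.092 (95% interval -0.58 to 0.76, edgeR adjusted p = 0.9999).

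betaTub56D (FBgn0003887, arm 2R) encodes the beta-tubulin that is supplied maternally and used in most cells, the usual partner of the alphaTub84B product. Its level was 1884, 1626 and 2085 CPM in Slam 1 to 3. With Dia antibody it was 5106, 2619.7, 3487 and 3218 CPM in Dia 1 to 4. No Slam library reached the lowest Dia library, and betaTub56D was the 1 tubulin gene whose groups did not overlap; among all genes tested, the groups of 27.4 percent did not overlap, and 12.2 percent were lower in every Slam library. The means were 1865 ± 230 CPM (SD, n = 3) and 3608 ± 1063 CPM (SD, n = 4), a fitted 1.93-fold lower level with Slam antibody (log2 ratio -0.95, SE 0.246, 95% interval -1.49 to -0.42, edgeR adjusted p = 0.0306). Dia 1, the library with the most muscle transcripts, was also the one with the most betaTub56D. Dia 2 and Slam 2, with the next highest muscle sums (711 and 662 CPM), had the least betaTub56D of their groups. Over the 12 libraries, as deviations from the mean of each experiment, betaTub56D had r = 0.059 with the muscle sum. Without Dia 1 the log2 ratio was -0.74 and the edgeR adjusted p 0.0672. The adjusted p was also above the threshold without Slam 1 (0.0857), Slam 2 (0.140) or Slam 3 (0.0571), while the direction was the same and the log2 ratio lay between -1.19 and -0.74 with any 1 library left out. Precipitation with the GFP-binder gave betaTub56D at 5169 and 2566 CPM in GFP-slam 1 and 3. Wild type 1 to 3 had 3009, 5734 and 4681 CPM. The GFP-slam libraries differed from each other 2.01-fold and spanned most of the wild-type range, and the log2 ratio was -0.21 (SE 0.372, 95% interval -1.04 to 0.62, edgeR adjusted p = 0.9999).

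betaTub60D (FBgn0003888, arm 2R) encodes a beta-tubulin of differentiating tissues, above all of developing muscle, and is little used before gastrulation. Its level was 31.8, 15.2 and 15.8 CPM in Slam 1 to 3. In Dia 1 to 4 it was 43.9, 21.5, 13.6 and 9.51 CPM. The Dia libraries differed 4.62-fold from lowest to highest, the widest spread of any of the 7 genes in a group, and Dia 1 and Slam 1 stood above the rest. The shallowest library, Dia 3, held 61 betaTub60D counts, for a counting error of 12.8 percent. The log2 ratio was -0.087 (SE 0.490, 95% interval -1.17 to 0.998, edgeR adjusted p = 0.925), and without Dia 1 it was 0.49, without Slam 2 0.098 and without Slam 3 0.047. With the GFP-binder the level was 3.35 and 11.4 CPM in GFP-slam 1 and 3, and 8.17, 11.1 and 12.2 CPM in wild type 1 to 3. GFP-slam 1 was alone at the low end, and the log2 ratio of -0.50 (95% interval -1.58 to 0.58, edgeR adjusted p = 0.9999) became 0.12 without that library.

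The summed level of the muscle genes Mhc, Act57B and Mlc2 moved with betaTub60D. This sum leaves out elav and nSyb, the remaining markers of differentiated cells. It was 216, 662 and 134 CPM in Slam 1 to 3 and 2007, 711, 175 and 151 CPM in Dia 1 to 4. In GFP-slam 1 and 3 it was 39.4 and 408 CPM, and in wild type 1 to 3 it was 79.5, 97.1 and 317 CPM. Dia 1 had the most of both in the antibody experiment and GFP-slam 1 the least of both in the other, whereas Slam 1 had much betaTub60D at a middling muscle sum. As deviations from the mean of each experiment over 12 libraries, the correlation of betaTub60D with this sum was r = 0.72, that of alphaTub67C was -0.64, and those of the other 5 genes lay between -0.31 and 0.059. Both values of a point come from 1 library, and the coefficients are descriptions. The part of such material in the betaTub60D values was not tested.

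**Figure D2:**
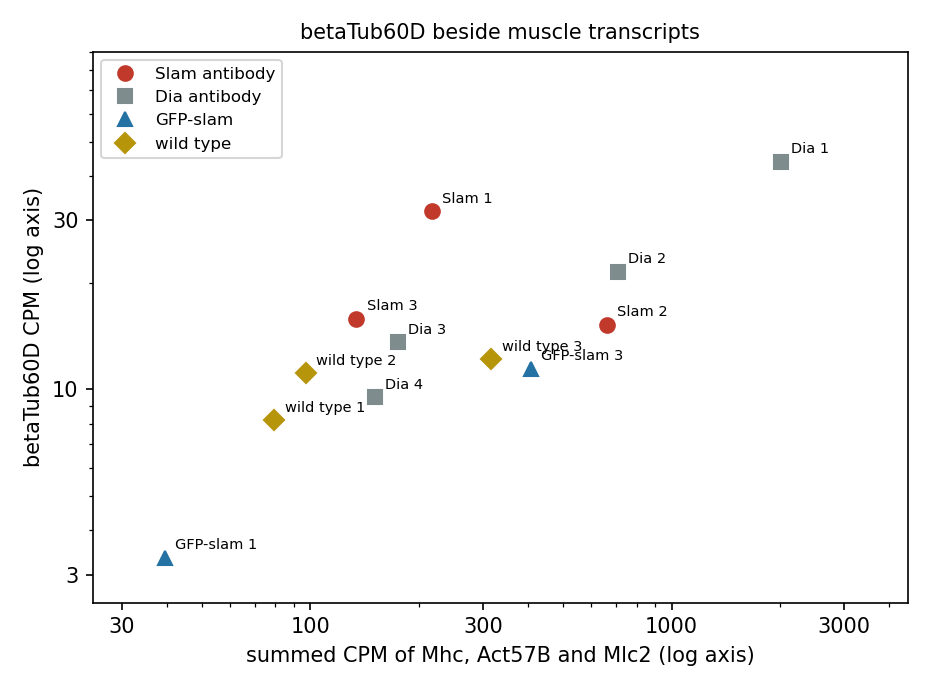
betaTub60D CPM (y axis, log) against the summed CPM of Mhc, Act57B and Mlc2 (x axis, log) in each of the 12 libraries. GFP-slam 1 (3.35 CPM of betaTub60D) lies at the lower left and Dia 1 (43.9 CPM) at the upper right; the experiments were normalized apart.

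The gamma-tubulin genes divide in the same way as the alpha-tubulin genes. gammaTub37C (FBgn0010097, arm 2L) encodes the maternal gamma-tubulin of the female germ line and early embryo. It was at 33.3, 26.7 and 42.8 CPM in Slam 1 to 3. The 4 Dia libraries were at 45.1, 60.6, 35.6 and 79.3 CPM. Slam 1 and Slam 2 were below every Dia library, while Slam 3 was above Dia 3. The fitted log2 ratio of -0.69 (SE 0.284, 95% interval -1.31 to -0.075, unadjusted p = 0.0310) missed the threshold after adjustment (edgeR adjusted p = 0.130). With the GFP-binder it was at 76.5 and 48.6 CPM in GFP-slam 1 and 3 and at 68.9, 44.9 and 44.2 CPM in wild type 1 to 3. There the fitted value had the opposite sign, at 0.25 (95% interval -0.42 to 0.92, edgeR adjusted p = 0.9999).

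gammaTub23C (FBgn0260639, arm 2L) encodes the gamma-tubulin of somatic cells. Slam 1 to 3 had 155, 149 and 188 CPM. Dia 1 to 4 had 292, 132, 184 and 215 CPM. The Slam libraries lay in the lower part of the Dia range, with Dia 2 below all of them, and the log2 ratio was -0.33 (SE 0.259, 95% interval -0.89 to 0.24, edgeR adjusted p = 0.430). With the GFP-binder, GFP-slam 1 and 3 had 362 and 162 CPM and wild type 1 to 3 had 168, 417 and 285 CPM. The wild-type libraries alone differed 2.48-fold, and the log2 ratio was -0.15 (SE 0.443, 95% interval -1.14 to 0.85, edgeR adjusted p = 0.9999).

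In the GFP-binder experiment as a whole, 0 of the 7 tubulin genes were called by edgeR, 0 had an unadjusted p under 0.05, and DESeq2 also called 0. Of all 8767 genes tested there, 0.753 percent were called, 0.525 percent higher and 0.228 percent lower. For 0 of the 7 did the GFP-slam and wild-type libraries lie apart, as they did for 17.4 percent of all genes, 8.42 percent being lower in both GFP-slam libraries. Fitted values of 5 tubulin genes were below 0 and of 2 above, where 46.7 percent of all genes were below 0, and the median was -0.15 against 0.024 over all genes. The 66 calls over all genes became 23 without wild type 1 or wild type 2, 25 without wild type 3, 141 without GFP-slam 1 and 158 without GFP-slam 3. With 2 GFP-slam libraries, the 95% intervals of the 7 genes reached down to -1.58 and up to 0.92 on the log2 scale. A decrease of betaTub56D as large as that fitted with Slam antibody lies inside its interval with the GFP-binder.

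**Figure D3:**
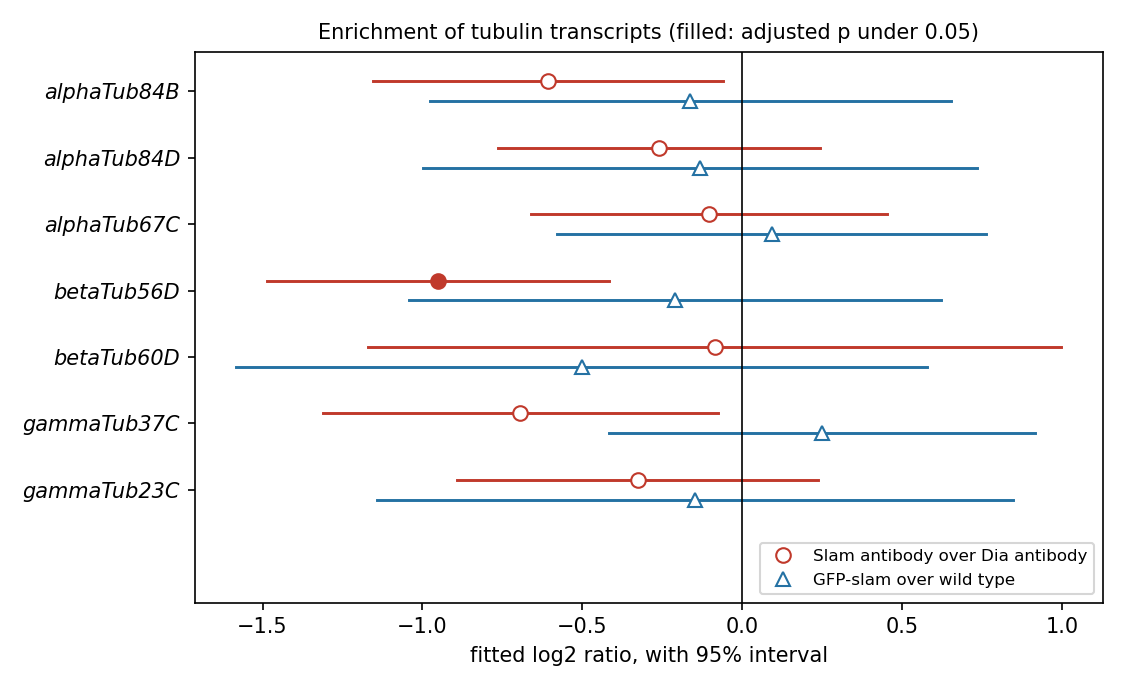
Fitted log2 ratios (x axis) with 95% intervals for each tubulin gene (y axis), Slam antibody over Dia antibody in red and GFP-slam over wild type in blue; filled symbols passed the test. betaTub56D at -0.95 is the 1 filled symbol, and all red points lie left of 0.

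The 2 enrichments were then compared with each other in a fit of all 12 libraries, over the 7197 genes kept in both experiments. The experiments share no library, and whether their tables were counted with the same annotation, as this fit assumes, was not tested. The difference for betaTub56D (Slam over Dia minus GFP-slam over wild type) was -0.70 (SE 0.428, 95% interval -1.61 to 0.22, edgeR adjusted p = 0.388). Being called in one experiment and not in the other therefore does not show that betaTub56D behaved differently in them. gammaTub37C had the largest difference of the 7 in size, -0.92 (SE 0.425, 95% interval -1.82 to -0.0095, unadjusted p = 0.0479, edgeR adjusted p = 0.253). For the other 5 genes the difference lay between -0.40 (alphaTub84B) and 0.39 (betaTub60D). By edgeR, 0 of the 7 differences were called and 1 had an unadjusted p under 0.05; among all genes, 0.653 percent were called lower and 2.67 percent higher. The interaction was not fitted in DESeq2.

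The balance within each tubulin class was followed as a share of counts, which does not depend on the scaling of libraries. Counts of a gene rise with its transcript's length, so a share is read across libraries and not as a ratio of molecules. alphaTub84D made up 9.45, 9.03 and 7.25 percent of the counts of the 3 alpha-tubulin genes in Slam 1 to 3. In Dia 1 to 4 it made up 6.98, 6.82, 6.90 and 6.72 percent. Every Slam library was above every Dia library. The Dia libraries spread over less than the width of the 95% Wilson interval for counting error of Dia 1 (6.80 to 7.16 percent), but Dia 4 lay below that interval. This share depends on how reads matching both alphaTub84B and alphaTub84D were assigned, which is not given. The means were 8.58 ± 1.17 (SD, n = 3) and 6.86 ± 0.111 percent (SD, n = 4), and an exact two-sided permutation test over libraries gave p = 0.0571, the smallest that 3 against 4 libraries allow (0.457 after Benjamini-Hochberg adjustment over the 8 share comparisons). The share was higher with Slam antibody in 3 of 3 same-numbered pairs, for which an exact test cannot go below p = 0.25. In the GFP-binder experiment the share was 7.88 and 7.58 percent in GFP-slam and 7.24, 7.01 and 8.75 percent in wild type, and the groups overlapped (exact permutation p = 1).

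The maternal alphaTub67C made up 5.92 ± 0.652 percent (SD, n = 3) of alpha-tubulin counts with Slam antibody and 4.45 ± 1.70 percent (SD, n = 4) with Dia antibody, where it ran from 2.49 percent in Dia 1 to 6.37 percent in Dia 2 (exact permutation p = 0.4). With the GFP-binder it ran from 3.04 to 5.78 percent in GFP-slam and from 2.14 to 5.54 percent in wild type (exact permutation p = 0.4, smallest possible 0.2). The maternal gammaTub37C varied more widely among controls. It made up 13.4, 31.4, 16.2 and 26.9 percent of gamma-tubulin counts in Dia 1 to 4 against 17.7, 15.2 and 18.5 percent in Slam 1 to 3 (exact permutation p = 0.514). In wild type 1 to 3 it was 29.0, 9.71 and 13.4 percent, and in GFP-slam 17.5 and 23.1 percent (exact permutation p = 0.8). In each experiment the lowest and the highest gammaTub37C share were thus both in controls. Controls are also the larger group in each experiment, and the difference in spread was not tested.

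betaTub60D made up 1.66, 0.928 and 0.753 percent of the counts of the 2 beta-tubulin genes in Slam 1 to 3. In Dia 1 to 4 it was 0.853, 0.814, 0.388 and 0.295 percent, and the groups overlapped (exact permutation p = 0.171). Within same-numbered pairs it was higher with Slam antibody in 3 of 3, by 0.808, 0.114 and 0.365 percentage points (exact sign-flip p = 0.25, the smallest that 3 pairs allow). With the GFP-binder it was 0.0647 and 0.444 percent in GFP-slam and 0.271, 0.194 and 0.260 percent in wild type (exact permutation p = 1). GFP-slam 1 had the lowest share of its experiment, and Slam 1 the highest of the other. All intervals and counts of this kind cover counting error only, since reads were not marked by molecular identifiers.

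**Figure D4:**
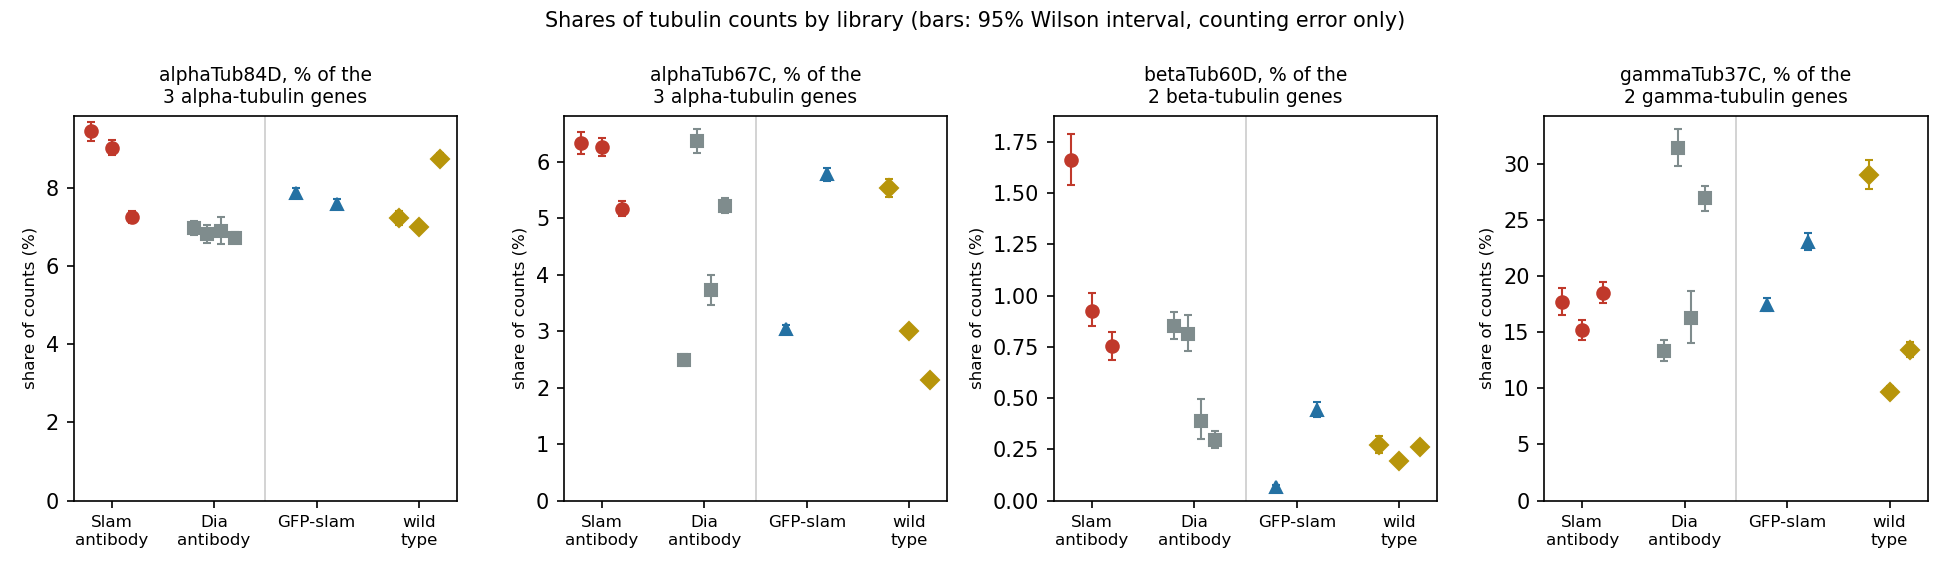
Share of counts (y axis, percent, starting at 0) of alphaTub84D and alphaTub67C among the 3 alpha-tubulin genes, of betaTub60D among the 2 beta-tubulin genes, and of gammaTub37C among the 2 gamma-tubulin genes, in each library of the 4 groups, with 95% Wilson intervals. The alphaTub84D shares of Dia 1 to 4 lie between 6.72 and 6.98 percent, below all Slam libraries.

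Together the 7 genes took 0.413, 0.463 and 0.656 percent of all counts in Slam 1 to 3, against 1.06, 0.659, 0.835 and 0.906 percent in Dia 1 to 4. Slam libraries were the lower ones here, although Slam 3 and Dia 2 were nearly level. This order depends on slam mRNA, which is part of the total and is abundant in the Slam libraries. It held 927058 of the 27543389 counts of Slam 3 and 7584 of the 14269505 counts of Dia 2. With slam left out of the total, Slam 3 would lie above Dia 2, and the groups would overlap. With the GFP-binder the share was 1.10 and 0.643 percent in GFP-slam and 0.725, 1.23 and 1.07 percent in wild type, without order between the groups. The ratio of betaTub56D to alphaTub84B counts, whose products pair in the heterodimer, was 0.796, 0.716 and 0.607 in Slam 1 to 3. In Dia 1 to 4 it was 1.04, 0.958, 0.881 and 0.667, with Dia 4 inside the Slam range. In the GFP-binder experiment the ratio was 0.901 and 0.963 in GFP-slam and 0.885, 1.01 and 0.929 in wild type. These ratios were looked at after the levels were known and have no test.

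Across libraries the 7 genes varied in different ways. alphaTub84B, alphaTub84D, betaTub56D and gammaTub23C, the genes used in most cells, rose and fell together. Over the 12 libraries, as deviations of log2 CPM from the mean of each experiment, alphaTub84B correlated with betaTub56D at r = 0.91, with alphaTub84D at 0.91 and with gammaTub23C at 0.89. The lowest coefficient among these 4 genes was 0.79, between alphaTub84D and betaTub56D. Among the 7196 other genes kept in both experiments, gammaTub23C ranked 17 for alphaTub84D and 207 for betaTub56D. Genes outside the 7 thus matched these patterns more closely, and the shared pattern is not particular to tubulin genes. alphaTub67C, in contrast, had r = -0.0088 with alphaTub84B and -0.22 with betaTub56D. Among the 7 genes its highest coefficient was 0.66, with gammaTub37C, the other gene described above as one of the female germ line. Over all 7196 other genes, however, gammaTub37C ranked only 575 for alphaTub67C. betaTub60D was opposed to alphaTub67C (r = -0.63) and to gammaTub37C (r = -0.45). In Dia 1, betaTub60D was 1.18 and betaTub56D 0.94 above their mean on the log2 scale, while alphaTub67C was at -0.47. In GFP-slam 3 the 4 broadly used genes were lower than their means by similar amounts, from -0.69 to -0.65, and alphaTub67C was at 0.01. The group difference between Slam and Dia antibody is part of these coefficients, and they take the tables of both experiments to measure the same transcripts, so no p is given.

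**Figure D5:**
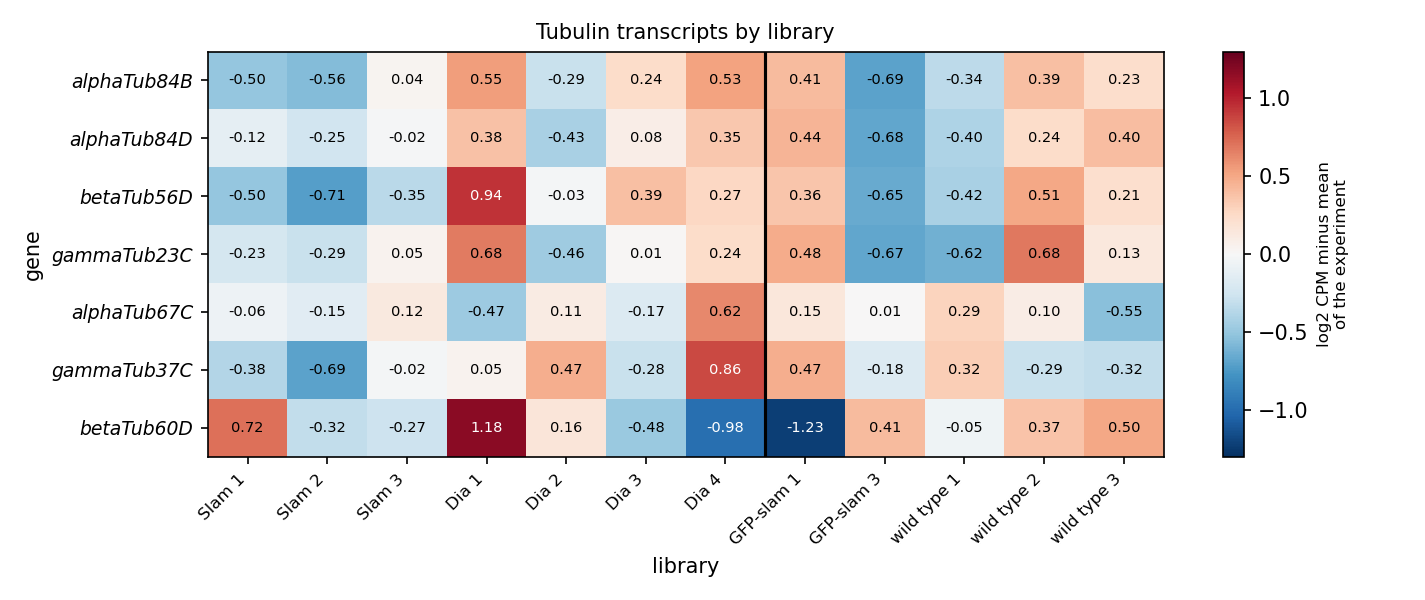
Deviation of log2 CPM from the mean of the experiment (colour and printed value) for the 7 tubulin genes (y axis) in the 12 libraries (x axis). The first 4 genes change sign together in most libraries. alphaTub67C and gammaTub37C depart from them and, in some libraries, differ from each other in sign. betaTub60D ranges from -1.23 in GFP-slam 1 to 1.18 in Dia 1.

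The genes whose pattern was most like that of each tubulin gene were sought among the 7196 other genes kept in both experiments. For alphaTub84B they were Act5C (r = 0.97) and Act42A (r = 0.96), which encode the cytoplasmic actins, and hts (r = 0.94), which encodes an adducin-like protein. For betaTub56D they were Sep1 (r = 0.98), which encodes a septin, Srp54 (r = 0.97) and CG17829 (r = 0.97). For alphaTub84D they were mtTFB2 (r = 0.96), IntS9 (r = 0.96) and CG1440 (r = 0.95). For gammaTub23C they were CtBP, which encodes a corepressor (r = 0.98), Atg7 of the autophagy pathway (r = 0.98) and the histone deacetylase gene Rpd3 (r = 0.97).

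The remaining 3 genes, alphaTub67C, gammaTub37C and betaTub60D, had other companions. For alphaTub67C they were exu (r = 0.96), which is needed in the egg to localize bicoid mRNA, Marcal1 (r = 0.95) and Nbr (r = 0.94). For gammaTub37C they were 128up (r = 0.95), CG4991 (r = 0.94) and Kap3 (r = 0.93), which encodes the kinesin-associated protein. For betaTub60D they were PPO2 (r = 0.90), a prophenoloxidase gene of blood cells, Gs2 (r = 0.85), a glutamine synthetase gene, and sls (r = 0.84), which encodes a titin-like protein of muscle. Each coefficient is the highest among 7196 genes over 12 points and describes these libraries only.

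The proteins that assemble with gamma-tubulin were measured as a list of 6 genes of the ring complex. In neither comparison was any of them called by edgeR or DESeq2 (0 of 6 each time), and 0 of 6 had an unadjusted p under 0.05 by either tool. Their median log2 ratio was -0.20 for Slam over Dia antibody and 0.27 for GFP-slam over wild type, beside -0.031 and 0.024 over all genes. Grip128, a subunit of the ring, had the lowest adjusted p with the antibodies (log2 ratio -0.37, 95% interval -0.84 to 0.088, edgeR adjusted p = 0.262). Grip91, a subunit of the small complex that binds gamma-tubulin directly, was at -0.31 and Grip75 at -0.31, while Grip71, which recruits the ring to spindles, was at 0.11. With the GFP-binder, Grip163 was at 0.55 (95% interval -0.15 to 1.25), Grip71 at 0.33, Grip128 at 0.30 and Grip91 at 0.23, each with an edgeR adjusted p of 0.9999.

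The list for tubulin folding held 13 genes, for the chaperonin that folds tubulin and actin chains, the prefoldin gene mgr and the cofactors that assemble the heterodimer. By edgeR and by DESeq2, 0 of 13 were called in either comparison. With the antibodies 1 of 13 had an unadjusted p under 0.05 by either tool, Tcp-1eta of the chaperonin (log2 ratio -0.55, 95% interval -1.06 to -0.035, edgeR adjusted p = 0.148). The cofactor genes CG1890 and TBCB were at -0.48 and -0.37 and the chaperonin gene Tcp-1zeta at -0.34, and the median of the list was -0.26. With the GFP-binder, 0 of 13 had an unadjusted p under 0.05 and the median was 0.10. Tcp-1eta was there at 0.35, CG1890 at 0.34, the cofactor gene CG7261 at 0.26 and the chaperonin gene CG5525 at -0.33.

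The remaining tubulin genes were at most 10.1 CPM in any library. alphaTub85E, used in developing muscle and support cells, was at 4.22, 5.03 and 1.87 CPM in Slam 1 to 3 and at 0.127 to 5.34 CPM in the Dia libraries (log2 ratio 0.60, 95% interval -1.38 to 2.59, edgeR adjusted p = 0.700). betaTub97EF was at 9.48, 6.29 and 4.54 CPM and at 1.64 to 10.1 CPM (log2 ratio 0.42, 95% interval -0.97 to 1.82, edgeR adjusted p = 0.699). Both intervals are wide and include a change as large as that fitted for betaTub56D. With the GFP-binder both were between 0.613 and 5.17 CPM, with log2 ratios of 0.077 and 0.16. betaTub85D, the beta-tubulin of the male germ line, was at most 1.26 CPM in any library, CG7794 at most 3.05 CPM and CG32396 at most 0.460 CPM, and these 3 genes were below the minimum of counts for a test.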

How the data were processed

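RNA libraries (TruSeq RNA kit) were sequenced on a HiSeq2000, and the authors deposited raw counts, 1 whole number per gene and library. Tools named in the submitters' processing notes, with no role, are STAR 2.5.0, DESeq2, bcl2fastq 2.17.1.14 and FastQC 0.11.4. How reads were counted, with which strand setting and on which genome build, is not given in the sources read; in RefSeq Release 6, which gave the chromosome arms, 0 genes overlap any of the 7. The authors' own comparison tables, which hold a ratio, a mean count and a p-value per gene, were not used, and 0 columns of libraries were left out. The fit was edgeR 4.0.16 (TMM on all genes, robust quasi-likelihood test, Benjamini-Hochberg threshold 0.05) in R 4.3.3, over genes whose normalized counts averaged 50 or more with the antibodies and 10 or more with the GFP-binder, after the minimums in the methods; DESeq2 1.42.0 was an alternative. CPM were computed with TMM-scaled library sizes, and correlations used log2 of CPM plus 0.5. Exact permutation tests are two-sided. Code was tested on simulated data.

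Slam and Dia libraries of the same number deviated together (r = 0.254, 0.391 and 0.151), while the 9 pairs of other numbers had r from -0.248 to 0.278 (Slam 3 was closest to Dia 4). The labels give no source for a pairing. Reported values are from fits without the number, which the methods do not use; the fit with it as a block is an alternative. Paired tests of the shares were added after the data were seen. Replicates differed by more than sampling noise (chi-square per degree of freedom 51.6 to 332). The genes, lists and tests were chosen with earlier results of these data known. Genes named are the 7, the other tubulin genes, slam, dia, the 4 genes of lowest adjusted p in the ring complex and folding lists, and the 3 genes most like each tubulin gene; markers served as checks. Of the testis markers, at most 1.26 CPM in sum was found in a library.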

Additional observations from a re-analysis of the deposited data

How the results depend on the processing

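The call of betaTub56D with Slam antibody kept its direction and passed the threshold under RLE size factors, library totals, DESeq2, filterByExpr, no minimum of counts, the joint fit, the sum of both beta-tubulin genes and the replicate block (adjusted p 0.00266 to 0.0385), but depends on each of 4 libraries; with 1 library left out the log2 ratio ranged from -1.19 to -0.74 and the number of tubulin genes called from 0 to 1. Called genes in all were 1266 by DESeq2 (772 higher, 494 lower) and 1418 with the replicate block (782 higher, 636 lower) against 781 with Slam antibody, and 309 to 1007 with 1 library left out. With the GFP-binder they were 196 by DESeq2 (109 higher, 87 lower), 286 with no minimum of counts (121 higher, 165 lower) and 133 with the replicate block (75 higher, 58 lower) against 66 (46 higher, 20 lower), and 23 to 158 with 1 library left out; 0 tubulin genes were called under any of these settings. With library totals in place of TMM, 457 genes were higher and 416 lower with Slam antibody, against 511 and 270.

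With the replicate block, alphaTub67C with Slam antibody turned to 0.15 and Grip75 to 0.045, gammaTub23C with the GFP-binder to 0.15 and alphaTub85E to -0.43; none of these was called either way, and the block changed no call among the tubulin, ring complex and folding genes. With Slam antibody it took the ring complex genes below 0 from 4 to 2 and the folding genes from 9 to 7, and with the GFP-binder from 1 to 0 and from 4 to 1. Paired over same numbers, the Slam minus Dia difference in share was 1.73 (alphaTub67C), 1.68 (alphaTub84D), 0.429 (betaTub60D) and -3.22 (gammaTub37C) percentage points. The 2 same-numbered pairs of the GFP-binder experiment are too few to show a pairing (r = 0.191 and 0.208). Leaving out 1 library turned the sign of these uncalled log2 ratios: alphaTub67C (-0.27 to 0.14), betaTub60D (-0.54 to 0.49) and Grip75 (-0.79 to 0.10) with Slam antibody, and with the GFP-binder alphaTub84B (-0.82 to 0.26), alphaTub84D (-0.80 to 0.29), alphaTub67C (-0.13 to 0.25), betaTub56D (-0.80 to 0.18), betaTub60D (-1.68 to 0.12), gammaTub37C (-0.11 to 0.51), gammaTub23C (-0.84 to 0.29), alphaTub85E (-1.71 to 0.84) and betaTub97EF (-1.01 to 0.78). Among differences of the 2 enrichments it did so for alphaTub84B (-0.80 to 0.16), alphaTub84D (-0.49 to 0.48), alphaTub67C (-0.34 to 0.058), betaTub60D (-0.27 to 1.66) and gammaTub23C (-0.55 to 0.46). Among differences in share with the GFP-binder, in percentage points, it did so for alphaTub67C (-0.519 to 2.22), alphaTub84D (-0.259 to 0.609), betaTub60D (-0.177 to 0.203) and gammaTub37C (-0.980 to 8.68). With Slam antibody the difference in the alphaTub84D share was 1.29 to 2.38. The cause was not tested; fewer libraries also widen every interval. A lone GFP-slam library left in the fit is assumed to vary like the controls. The planned shares per transcript length were not run.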
